A study of Mus musculus with 6 samples.

Results

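The genes described here load peptides onto major histocompatibility complex (MHC) class I molecules. They were listed by name as Tap1, Tap2, Tapbp, B2m, H2-K1, H2-D1, H2-M3, Nlrc5, Erap1 and Calr, 10 genes in all, and 8 of them had a probe set annotated to that gene alone, out of 19938 genes with such a probe set. H2-K1 and H2-D1 had none, since the only probe sets that list either symbol list both. Where a gene had several probe sets, the one of highest mean represented it. The study measured thymic medullary epithelial cells, stromal cells that show developing T cells a wide range of the body's own proteins, sorted as CD45-, Ly51-intermediate and MHC class II high. All mice were 4 to 6 weeks old and of the (B6xNOD)F1 background, a cross whose parents differ in some but not all class I alleles. Of these mice, 3 were labelled Aire WT and 3 Aire KO (Aire-/-). Aire is the transcriptional regulator that drives much of that display. Each array held RNA of 1 mouse, amplified in 2 rounds.

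Class I molecules show peptides from inside the cell to CD8 T cells. The proteasome cuts proteins, the Tap1-Tap2 transporter pumps the peptides into the endoplasmic reticulum, Erap1 trims them there, and tapasin (Tapbp) with calreticulin (Calr) holds the heavy chain and its partner B2m until a peptide fits. Nlrc5 is the transactivator of class I genes, and interferon-gamma raises many of these genes in other cell types. In the thymus these molecules present self peptides during the selection of CD8 T cells.

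Promoters of 8 of the 10 listed genes stood in the RefSeq table of build GRCm38.p6, as windows of 250 bases before the start and 50 from it, and Tap2 and Nlrc5 had no entry. They were searched on both strands for the core of the interferon-stimulated response element, GAAANNGAAA, for the gamma-activated site, TTCNNNGAA, for an NF-kappa-B core, GGGNNTTNCC, and for the CCAAT box, CCAAT. Matches to different motifs overlapped in 0 cases. The first motif was in the windows of B2m and Erap1 and in 3.44% of all 32851 promoters. H2-M3 was the one gene with the second, which 8.30% of promoters held. The third was in B2m, H2-K1 and H2-D1, against 4.79%, and CCAAT in 7 of the 8 genes, all but Erap1, against 37.4% of promoters. H2-K1 had overlapping windows, and a gene was counted if any of its windows matched. A match describes letters and shows no binding. The stretches below are shown because Erap1 fell in the mice labelled KO, because B2m, which did not pass the test, holds the same interferon motif, and because Tap1 and Psmb9 start on either side of the third stretch. All are on the plus strand. In the first, capitals mark GAAANNGAAA, read on the minus strand. In the second, they mark the interferon motif, read on the plus strand, and then the NF-kappa-B core, read on the minus strand. In the last, they mark CCAAT.
Erap1, chr13:74639713-74639862: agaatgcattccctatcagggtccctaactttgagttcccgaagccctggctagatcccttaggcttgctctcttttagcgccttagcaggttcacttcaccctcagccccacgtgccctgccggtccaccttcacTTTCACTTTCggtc
B2m, chr2:122147537-122147686: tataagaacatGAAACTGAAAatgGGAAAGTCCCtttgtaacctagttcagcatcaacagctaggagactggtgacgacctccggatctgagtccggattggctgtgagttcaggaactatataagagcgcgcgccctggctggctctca
Between Psmb9 and Tap1, chr17:34187331-34187555: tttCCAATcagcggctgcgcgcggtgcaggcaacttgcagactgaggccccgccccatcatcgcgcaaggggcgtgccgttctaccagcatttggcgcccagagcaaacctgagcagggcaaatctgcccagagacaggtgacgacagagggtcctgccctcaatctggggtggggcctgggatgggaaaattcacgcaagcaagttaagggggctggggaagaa
The Erap1 motif begins 4 bases before the annotated start and runs across it, and that of B2m begins 139 bases before. The stretch between the starts of Psmb9 and Tap1 is 225 bases long.

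Values below are log2 intensities, a difference is KO-labelled minus WT group mean, and genes were called at an adjusted p under 0.05 (limma, Benjamini-Hochberg) over the 13925 bright enough to test. Array medians lay between 92.9 and 98.2 in linear intensity, and the number of arrays, 3 per group, limits the precision. The Aire probe set gave 11.97 ± 0.04 in WT and 12.41 ± 0.02 in KO-labelled mice (SD, n = 3 each). The labels do not name the deleted part of the gene, so the signal is no check of genotype. Epithelial Epcam (10.58 to 11.26 over the 6 arrays) and Cd80 (10.63 to 10.94) were bright. Of 10 cortical epithelial markers, Psmb11 (5.54 to 5.67) and Cxcl12 were too dim to test. Others on that list, such as Krt8 (12.74 to 13.06) and Foxn1 (9.75 to 10.29), were bright too, and a level alone cannot assign them to cortical cells. Of the 8 tested, 2 fell and 2 rose, 50% in all against 26.1% of all tested genes. Enpep, which encodes the Ly51 used in the sort, fell from 7.26 ± 0.01 to 6.27 ± 0.10 (SD, n = 3 each, limma adjusted p = 6.4e-06). Ctsl fell by 0.72, and Prss16 rose by 0.36 and Tbata by 0.50 (limma adjusted p = 0.00040, 0.018 and 0.00079). Medullary markers also differed between the genotypes. Of 12 tested, 3 fell and 1 rose, 33.3% in all against the same 26.1%. Krt5 fell by 0.84, Krt14 by 0.44 and Epcam by 0.37, and Ctss rose by 0.46 (limma adjusted p = 0.00047, 0.012, 0.021 and 0.0017). Their part in the differences of the loading genes was not tested. In bulk RNA, fewer cells of a type and less RNA per cell cannot be told apart.

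Most of the loading genes did not pass the test between genotypes, and the changes that passed were small. Of the 8 measured, all passed the intensity filter on all 6 arrays, 2 fell, 0 rose and 6 did not pass. Of all tested genes 26.1% were called, 14.1% as lower and 12% as higher, so 2 of 8 is close to the share among genes in general. The median difference was -0.07 over the 8 and 0.02 over all tested genes. The groups did not overlap for 4 of the 8 (Nlrc5, Erap1, Tap1 and Calr), against 42.4% of tested genes.

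**Figure D1:**
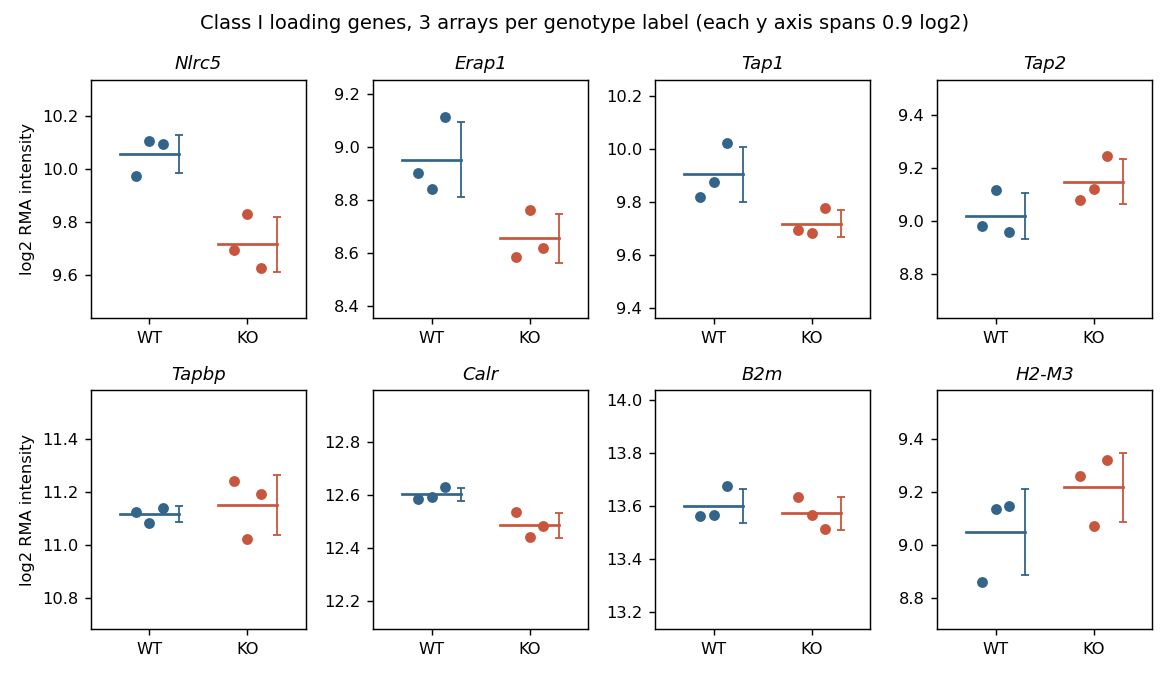
Log2 RMA intensity of the 8 measured class I loading genes on each array (points), with the group mean (line) and SD (bar), for 3 WT and 3 KO-labelled mice; each vertical axis spans the same range. Nlrc5, Erap1, Tap1 and Calr have every KO-labelled array under every WT array, and the other 4 genes overlap.

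Nlrc5, the transactivator, had the largest difference among the 8 genes. Its probe set 10574149 read 9.98, 10.11 and 10.09 in WT mice and 9.70, 9.83 and 9.63 in KO-labelled mice. All KO-labelled arrays lay under all WT arrays. It fell 1.27-fold, from 10.06 ± 0.07 to 9.72 ± 0.10 (SD, n = 3 each), a difference of -0.34 (SE 0.09, limma adjusted p = 0.014). The call was lost without KO replicate 1 (-0.33, limma adjusted p = 0.053) or KO replicate 3 (-0.30, limma adjusted p = 0.068), and with the mean of all its probe sets (-0.19, limma adjusted p = 0.096).

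Nlrc5 was covered by 19 probe sets, which did not all behave alike. With each probe set tested on its own, 8 of the 19 were called lower and 0 higher, against 13.7% of all probe sets called lower in that fit. The 19 differences ran from -0.41 to 0.16 with a median of -0.24, and 17 were below 0. Probe set 10574098 stood at -0.41, from 9.42 ± 0.02 to 9.01 ± 0.08 (SD, n = 3 each, limma adjusted p = 0.0034). Probe set 10574100, whose identifier follows it, stood at -0.03 with overlapping groups, and 10574153 at 0.16 (limma adjusted p = 0.86 and 0.26). The probe sets share the RNA of the same 6 mice and are not replicates. The files do not say which exons they cover.

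**Figure D2:**
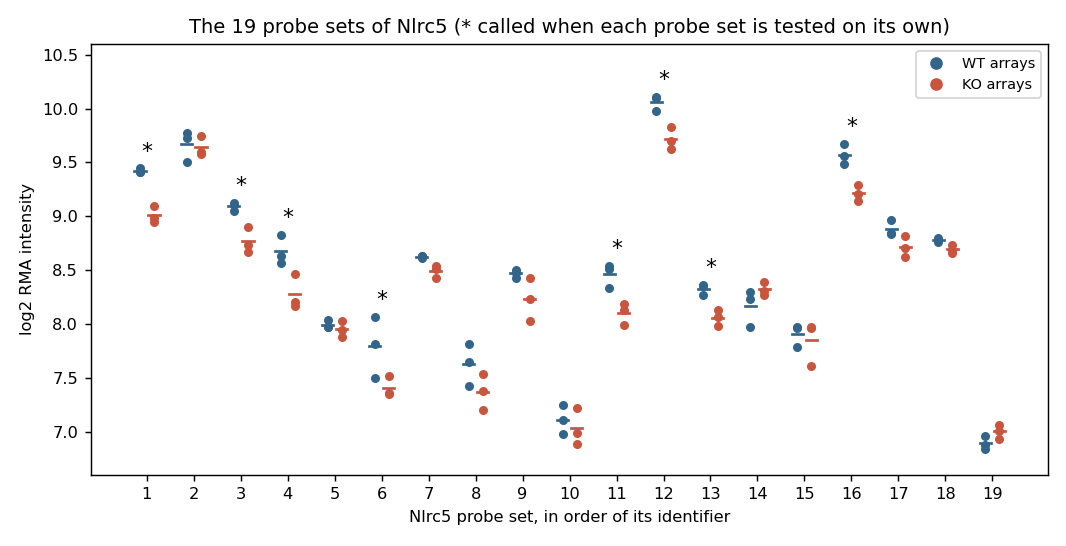
Log2 RMA intensity of the 19 probe sets of Nlrc5 on 3 WT (blue) and 3 KO-labelled (red) arrays, with group means as lines, in order of probe set identifier; stars mark the 8 called when each was tested on its own. KO-labelled means are lower for 17 probe sets and higher for 2.

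Erap1, the aminopeptidase that trims peptides to class I length, was the other gene that fell. It read 8.90, 8.84 and 9.11 in WT and 8.59, 8.76 and 8.62 in KO-labelled mice. The groups were apart, with WT replicate 3 the highest of the 6 arrays. It fell 1.23-fold, from 8.95 ± 0.14 to 8.65 ± 0.09 (SD, n = 3 each), a difference of -0.30 (SE 0.10, limma adjusted p = 0.040). Without WT replicate 3 it was -0.22 (limma adjusted p = 0.097). The call was also lost without WT replicate 1 (limma adjusted p = 0.061), KO replicate 1 (0.14) or KO replicate 3 (0.12), and with arrays centred on their medians (0.056).

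Some T lineage transcripts were lower in the same mice. Cd3g, a T cell receptor subunit, read 8.18, 8.04 and 9.32 in WT and 7.08, 7.68 and 6.59 in KO-labelled mice, and Ptprc, which encodes the CD45 excluded by the sort, fell by 0.62. These were the 2 that fell of 9 tested T lineage markers, 22.2% against 14.1% of all tested genes, and 0 rose. The other 7 did not pass and ran from -0.50 (Rag1) to 0.16 (Thy1). Among them Cd8a stood at -0.40, Cd2 at -0.39 with groups apart, and Cd3e at -0.01. Of the 9 tested, 8 were below 0 and 1 above, with a median of -0.39 against 0.02 over all tested genes. The summed linear intensity of the 11 measured was 1525 to 2282 in WT and 1212 to 1516 in KO-labelled mice, highest in WT replicate 3. Cd3d, at 5.29 to 5.64, lay under the intensity filter on all arrays. Of 4 tested B lineage markers 3 rose and 0 fell, 75% against 12% of all tested genes called higher, and the sum of the 6 measured was 655 to 673 in WT and 783 to 795 in KO-labelled mice, with Cd79a and Ms4a1 under the filter. These defining markers stood at -0.11, with overlap, and at -0.48, with groups apart. Without WT replicate 3, Nlrc5 was at -0.32 (limma adjusted p = 0.031), and the Cd3g values of the other WT arrays still lay above all KO-labelled ones. Lymphocytes express Nlrc5 and Erap1 too, and the part of these transcripts in either fall was not tested.

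The transporter genes did not pass the test, and their differences had opposite signs. Tap1 read 9.82, 9.88 and 10.02 in WT and 9.69, 9.68 and 9.78 in KO-labelled mice, so all KO-labelled arrays lay just under the WT arrays. Its difference was -0.19 (SE 0.09, unadjusted 95% interval -0.37 to -0.00035, limma adjusted p = 0.13). Tap2, the other half-transporter, read 8.98, 9.12 and 8.96 in WT and 9.08, 9.12 and 9.24 in KO-labelled mice, with overlap. Its difference was 0.13 (95% interval -0.06 to 0.32, limma adjusted p = 0.29). The intervals hold no change as large as 2-fold for either gene.

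The chaperones of the loading complex did not pass either. Tapbp, the tapasin gene, read 11.12, 11.08 and 11.14 in WT and 11.24, 11.02 and 11.19 in KO-labelled mice. The WT arrays lay inside the range of the KO-labelled ones, and the difference was 0.04 (95% interval -0.15 to 0.22, limma adjusted p = 0.79). Calr read 12.58, 12.59 and 12.63 in WT and 12.53, 12.44 and 12.48 in KO-labelled mice. The groups were apart, yet the difference of -0.12 (95% interval -0.29 to 0.05) did not pass (limma adjusted p = 0.29).

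Among the listed genes of the class I molecule itself, the light chain and 1 heavy chain could be measured. B2m, the invariant light chain, read 13.56, 13.56 and 13.67 in WT and 13.63, 13.57 and 13.51 in KO-labelled mice. Its groups overlapped, with a difference of -0.03 (95% interval -0.21 to 0.15, limma adjusted p = 0.82). H2-M3, a nonclassical chain that presents N-formylated peptides, read 8.86, 9.14 and 9.15 in WT and 9.26, 9.07 and 9.32 in KO-labelled mice. Its difference was 0.17 with overlap (95% interval -0.06 to 0.40, limma adjusted p = 0.25), and WT replicate 1 was the low array. The classical chain genes H2-K1 and H2-D1 share their probe sets, and the signal there cannot be given to either. Probe set 10444780, annotated to both and to another locus, read 12.75 to 12.85 in WT and 12.81 to 12.84 in KO-labelled mice. Probe set 10450075, with the same symbols, read 12.76 to 12.92 and 12.80 to 12.86, and neither was among the genes tested.

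Other genes of the pathway moved in both directions. Of 36 tested partners, 4 fell and 5 rose, 25% in all against 26.1% of tested genes, with a median difference of 0.01. The falls were in peptidases and a chaperone. Lap3, a cytosolic leucine aminopeptidase, fell 1.56-fold from 8.75 ± 0.17 to 8.11 ± 0.08 (SD, n = 3 each, limma adjusted p = 0.00078). Blmh, bleomycin hydrolase, fell 1.31-fold and Tpp2, tripeptidyl peptidase II, 1.32-fold (limma adjusted p = 0.0091 and 0.0093). Canx, the calnexin that folds new heavy chains, fell by 0.25 (limma adjusted p = 0.043). That call was lost with no intensity filter (limma adjusted p = 0.055), another quantile normalization (0.059) and median centring (0.063), and also with the replicate block. The peptidases Thop1, at -0.08, and Npepps, at 0.04, did not pass, nor did the oxidoreductase Pdia3 of the loading complex, at -0.18, or Tapbpl, at 0.08.

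The partners that rose include inducible proteasome subunits. Psmb9 read 9.49, 9.58 and 9.51 in WT and 9.77, 9.73 and 9.86 in KO-labelled mice, and Psmb10 read 10.55, 10.51 and 10.58 against 10.83, 10.71 and 10.85. Both had groups apart and rose, by 0.26 and 0.25 on the log2 scale (limma adjusted p = 0.035 and 0.038). Psmb8, the remaining inducible subunit, stood at 0.17 with groups apart and did not pass (95% interval 0.01 to 0.34 unadjusted, limma adjusted p = 0.12). Ero1b, an oxidase of the endoplasmic reticulum, rose 1.38-fold, Crebbp, a histone acetyltransferase, 1.30-fold and Ciita, the class II counterpart of Nlrc5, 1.23-fold (limma adjusted p = 0.0015, 0.010 and 0.025). The count of risen partners was 2 without WT replicate 1, WT replicate 2 or KO replicate 1, and 3 without KO replicate 3. Psmb9 lost its call without any of WT replicates 1, 2 and 3 and KO replicates 1 and 3, where adjusted p ran from 0.052 to 0.13, and Canx without the same arrays. Psmb10 lost it without WT replicates 1 or 2 or KO replicates 1 or 3, and Ciita without WT replicates 1 or 2 or KO replicates 1 or 2.

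Psmb9 and Tap1, on either side of the 225-base stretch printed above, had differences of opposite sign. Psmb9 minus Tap1 within each array was -0.33, -0.30 and -0.51 in WT and 0.07, 0.04 and 0.09 in KO-labelled mice. All KO-labelled arrays lay above all WT arrays. Psmb9 was higher and Tap1 lower on every KO-labelled array than on any WT array. This separation and the permutation p below were therefore fixed in advance. The shift was 0.45, from -0.38 ± 0.12 to 0.07 ± 0.02 (SD, n = 3 each, two-sided exact permutation p = 0.10, the smallest that 3 mice against 3 allow). Only the shift can be read, since levels of different probe sets do not compare. The pair was chosen after its values had been seen, Tap1 alone did not pass, and a design of this size cannot pass the threshold, so the shift is a description.

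**Figure D3:**
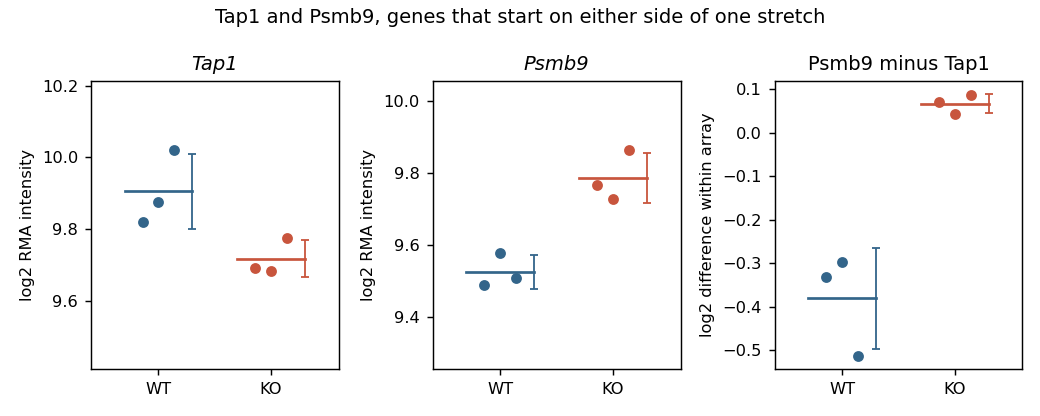
Log2 RMA intensity of Tap1 and Psmb9, and their difference within each array, for 3 WT and 3 KO-labelled mice (points), with group mean (line) and SD (bar). Psmb9 minus Tap1 lies between -0.51 and -0.30 on WT arrays and between 0.04 and 0.09 on KO-labelled arrays.

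Other class I and class I-like chains with a probe set of their own mostly did not pass. Of 17 tested genes in this list, 2 fell and 2 rose, 23.5% in all against 26.1% of tested genes, with a median of -0.07. H2-Ke6, which is no class I chain, is counted among the 17 and among the 2 that rose, so the counts for true chains are lower by that gene. A further 3 were too dim to test: H2-M1 (-1.41, groups apart), Azgp1 (-0.25, groups apart) and H2-M5 (0.10, with overlap). H2-M10.1, of a family expressed in vomeronasal neurons, rose 1.72-fold from 6.88 ± 0.13 to 7.66 ± 0.17 (SD, n = 3 each, limma adjusted p = 0.00026). Raet1d, a ligand of the NKG2D receptor, fell 1.62-fold from 6.92 ± 0.23 to 6.23 ± 0.13 (limma adjusted p = 0.0014). H2-M9 fell 1.54-fold, but all its KO-labelled arrays lay under the intensity filter, so that a fall was the one change it could show. The remaining call, H2-Ke6 at 0.25, which was lost with no filter, with median centring, with the replicate block and without WT replicates 1 or 2 or KO replicates 1 or 3, encodes a steroid dehydrogenase in spite of its symbol. H2-T10, at -0.29 with groups apart (limma adjusted p = 0.054), H2-Q4, at 0.03, and the CD1 gene Cd1d1, at -0.16, did not pass. Of the 17 tested, 12 were below 0 and 5 above. These families are close in sequence, and shared probe signal was not tested.

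Interferon-gamma response genes were called in 65.2% of those tested, against 26.1% of all tested genes. Of 23, 10 fell and 5 rose by limma, with a median of -0.10. The list holds Nlrc5 and 7 of the partners, so these counts are not separate from those above. The GTPase genes of defence against intracellular pathogens fell furthest among those named. Irgm1 fell 2.67-fold from 8.41 ± 0.13 to 6.99 ± 0.20, Gbp7 2.38-fold and Gbp3 2.24-fold (SD, n = 3 each, limma adjusted p = 3.8e-06, 6.0e-05 and 2.4e-06). Gbp5 fell 1.98-fold and the chemokine gene Cxcl9 1.89-fold (limma adjusted p = 8.5e-05 and 1.5e-05). Irf8, an interferon regulatory factor, rose 1.68-fold from 10.33 ± 0.12 to 11.08 ± 0.13 (limma adjusted p = 0.00019). Irf1, a direct activator of class I genes, stood at -0.06 and Cxcl10 at -0.08, both with overlap, and neither passed. The count of risen genes was 1 without KO replicate 1 and 2 without WT replicate 1, WT replicate 2 or KO replicate 3, and the falls numbered 6 without KO replicate 1. Of the myeloid transcripts, Adgre1, a macrophage marker, stood at -1.58 and Itgam at -1.29, but every KO-labelled array lay under the intensity filter for both, so that neither could have been called higher. They make up 2 of the 3 falls among 9 tested dendritic cell and macrophage markers, 33.3% against 14.1% of all tested genes. The remaining fall was Csf1r, at -0.54 and above the filter on all arrays (limma adjusted p = 0.0011). The 2 that rose were Zbtb46, at 0.44, and Cd68, at 0.32 with overlap (limma adjusted p = 0.0044 and 0.0497). In all, 55.6% of these markers were called, against 26.1% of all tested genes. The summed intensity of the 12 measured was 3888 to 4234 in WT and 3826 to 3901 in KO-labelled mice, with Itgax, Siglech and Clec9a under the filter. The part of these cells in the falls was not tested.

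**Figure D4:**
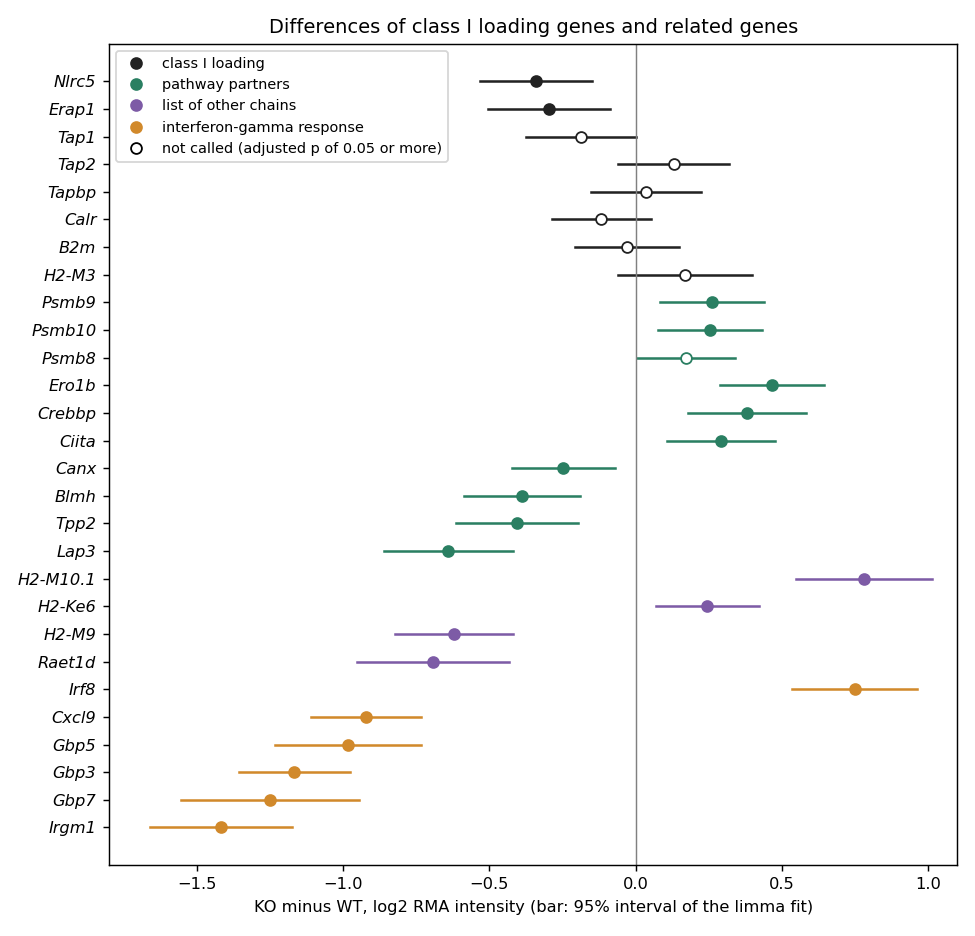
KO minus WT difference in log2 RMA intensity (point) with its 95% interval from limma (bar), 3 mice per group, for the 8 class I loading genes and for named genes of the pathway partners, the list of other chains and the interferon-gamma response; open points were not called. The loading genes lie between -0.34 and 0.17, and the interferon-response genes shown lie between -1.42 and 0.75.

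The genes most like the loading genes were found by correlation over the 6 arrays with the mean of the 8, each centred on its own mean. That mean ran from -0.06 to 0.10 and was highest in WT replicate 3. Itgal, an integrin chain of leukocytes, had a Pearson r of 0.9997, Abcb8 0.991, Akap13 0.989, Fbxw11 0.983 and Acsf2 0.979. Itgal read 7.43, 7.58 and 7.70 in WT and 7.42, 7.36 and 7.43 in KO-labelled mice. These are the top 5 of all tested genes over 6 points that share 2 genotypes, so high values arise readily, and they describe only these arrays.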

How the data were processed

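RNA of sorted medullary epithelial cells from 6 mice was hybridised to 1 array each. The deposited values are probe set intensities on the linear scale, made by the authors with RMA, according to the submitters' processing notes. This method equalises the distributions of arrays, which hides change in total RNA, and background compresses folds of dim genes. Its version and the genome build are not stated in those notes.

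Values were taken to log2 with nothing added (pseudocount 0). Of 35512 probe sets, 21789 carry 1 gene symbol, 1621 several and 12102 none. A gene was tested if it exceeded 5.97, the 40th percentile of all values, on at least 3 arrays. The test was limma 3.58.1 (lmFit, eBayes, two-sided) in R 4.3.3 with genotype as the only factor, checked on simulated data. Labels give no batch. Named genes are the listed loading genes, called partners and chains, and the 6 interferon-response genes of smallest adjusted p. Others (those named as not passing or too dim, marker genes, Psmb8) were chosen after their values were seen. Listed Ero1l and Ero1lb were matched as Ero1a and Ero1b. Members and lists were chosen with earlier results of these data known. The replicate numbers were checked for pairing: deviations of same-numbered mice correlated at -0.02, -0.21 and -0.06, which shows no sign of it. With 3 mice per group this does not settle whether same-numbered mice were paired. Promoters are from RefSeq, and figures from matplotlib 3.10.9.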

Additional observations from a re-analysis of the deposited data

How the results depend on the processing

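Alternatives were no intensity filter, a 60th percentile filter, another quantile normalization, median centring, 32 added before log2, averaged probe sets, each probe set alone, trended robust variances, array weights, the replicate block and each array left out. The 2 loading genes called lower became 1 with median centring, with the mean of probe sets and with the replicate block, and ranged from 0 to 2 with 1 array left out; those called higher stayed at 0. With each probe set alone, Nlrc5 counts 19 times and the median of the loading genes was -0.15; without 1 array it was -0.10 to -0.05. For the list of other chains, with H2-Ke6 counted in it, 4 fell and 1 rose with no filter. In that list 1 fell with the 60th percentile filter, and 1 rose with median centring or the replicate block. With the replicate block 2 partners and 2 interferon-response genes rose, and 15 of 21 named calls remained; Erap1 was at adjusted p = 0.064 (limma). The partners called lower numbered 3, not 4, with no filter, another quantile normalization, median centring or the replicate block. Without 1 array, partners numbered 3 to 5 lower and 2 to 6 higher, other chains 2 to 3 and 1 to 2, interferon-response genes 6 to 10 and 1 to 4, and all genes 1364 to 1877 and 1052 to 1547. Uncalled B2m ranged from -0.061 (without KO replicate 1) to 0.0085 (without WT replicate 3) and Tapbp from -0.0082 (without KO replicate 1) to 0.10 (without KO replicate 2), both changing sign. Among single-gene differences, 402 kept direction and side of the threshold, 41 lost the call and 3 turned. The 402 include genes not called in the main fit, which had no call to lose, so the share lost among called genes is larger. The causes were not tested. No detection calls come with these intensities, so brightness over background is unknown for any 1 probe set.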
